A study of Drosophila melanogaster with 9 samples.

Results

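The phototransduction and rhabdomere genes described here are 32 named genes of the fly light response, all of which were found, by exact name, among the 17558 genes of the deposited count tables. RNA was taken from pupal eyes of Drosophila melanogaster at 40 to 41 hours after puparium formation, and 3 libraries were made for each of 3 genotypes, each library from 60 pooled eyes. Control eyes (mCherry) carried UAS-mCherry (BDSC #35787) over pGMR-GAL4. Bon eyes had 1 copy of UAS-bon-mCherry and 1 of pGMR-GAL4, each over a wild-type chromosome. Bon+yki-RNAi eyes had UAS-bon-mCherry over a wild-type chromosome and pGMR-GAL4 over UAS-yki-RNAi, stock BDSC #34067. All 3 groups therefore carried pGMR-GAL4, a driver of the developing eye that acts in photoreceptors and also in lens-secreting and pigment cells, and each genotype was a single combination of stocks. Bon is a transcriptional cofactor that gives eyes epidermal trichomes when overexpressed, and Yki is the coactivator restrained by the Hippo pathway. The comparisons ask how the genes of light detection stood in such eyes, and which of them moved again when yki was knocked down. No group carried yki-RNAi without Bon, or Bon with a control RNAi. Changes with yki-RNAi are therefore known only in Bon eyes, and the part of an added construct was not tested.

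In the fly photoreceptor, light is absorbed by a rhodopsin held in the rhabdomere, a stack of tightly packed microvilli. The activated rhodopsin switches on a Gq protein, which activates a phospholipase C, and the products of lipid cleavage open the TRP and TRPL cation channels. A scaffold protein keeps channel, lipase and kinase together, arrestins and calcium-dependent enzymes end the response, and a lipid cycle in the microvillar base restores the substrate. At this stage of pupal life the photoreceptors are specified and the rhabdomeres are beginning to form, while opsin genes are known to be switched on later.

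Library totals were 34926438 to 48524961 counts. The targeted genes followed the labels: bon stood at 170 to 176 CPM (counts per 1e6 counts of the scaled library) in mCherry libraries, against 4695 to 5193 CPM in those of Bon eyes and 4125 to 4219 CPM with yki-RNAi added. The gene yki stood at 60.0 to 62.8, 62.3 to 62.9 and 28.9 to 29.3 CPM. Reads of the bon transgene and of the endogenous gene are not separated in these values. In Bon+yki-RNAi against Bon eyes, bon was itself lower, at a log2 fold change of -0.26 ± 0.03 (SE, adjusted p = 6.14e-05). Knockdown of yki and a lower bon level thus come together in that comparison, and their parts cannot be told apart. The labelled tissue had its markers in all libraries, with gl, a transcription factor of differentiating photoreceptors, at 421 ± 6.80 CPM and elav, a neuronal RNA-binding protein, at 376 ± 13.6 CPM in mCherry eyes (SD, n = 3). Of 6 photoreceptor and neuron markers, 4 were higher and 1 lower in Bon than in mCherry at an adjusted p of 0.05. Of all tested genes, 25.2% were higher and 27.2% lower. Among the 4, elav was at 0.08 ± 0.03 and gl at 0.11 ± 0.03 (log2 fold change ± SE). The lower one was futsch, a microtubule-binding protein of axons, at -0.73 ± 0.05 (2172 ± 127 to 1313 ± 42.9 CPM). With it the summed level of these 6 genes was 3743 to 4061 CPM in mCherry, 3181 to 3273 CPM with Bon and 3423 to 3577 CPM with Bon and yki-RNAi. Of 6 cone and pigment cell markers, 5 were lower in Bon, beside 27.2% of all tested genes. The summed level of the 6 went from between 1426 and 1475 CPM to between 666 and 701 CPM, and to between 908 and 927 CPM with yki-RNAi. Its largest parts were w (577 ± 33.1 CPM in mCherry) and ct (415 ± 24.1 CPM in mCherry). With yki-RNAi in Bon eyes 3 of the 6 rose and 2 fell, beside 11.3% and 16.3% of all tested genes. The 6 glia markers summed to between 914 and 923 CPM in mCherry, between 666 and 693 CPM with Bon and between 692 and 707 CPM with yki-RNAi added. Of the 5 that were tested, wrapper (-1.30 ± 0.03) and loco (-0.53 ± 0.03) were called lower with Bon, beside 27.2% of all tested genes. The other 3, repo (0.08 ± 0.05), moody (-0.03 ± 0.03) and Gs2 (-0.53 ± 0.32), did not pass the threshold. The 6 brain and optic lobe markers summed to between 40.2 and 43.6, between 51.4 and 58.2, and between 66.0 and 67.7 CPM in that order, most of it from bsh (30.8 ± 0.371 CPM in mCherry), and 4 of 6 had a mean under 1 CPM in each group. Muscle markers stayed at 13.1 CPM or less in every library, fat body markers at 63.4 CPM or less, and hemocyte markers were at 152 to 184 CPM in mCherry, 114 to 145 CPM with Bon and 141 to 147 CPM with yki-RNAi added. The hemocyte level came mostly from Pxn, a peroxidasin (162 ± 16.0 CPM in mCherry), while Hml was at 1.43 ± 0.26 CPM, and He had no counts in mCherry and Bon libraries. In bulk RNA of this kind, fewer cells of a type and less RNA per cell cannot be told apart, and the part of shifts in cell types in the values below was not tested.

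In control eyes the machinery downstream of rhodopsin was already transcribed, and the rhodopsins were nearly silent. Per kb of exon, the highest member was prom at 260 ± 11.2 CPM per kb, above 97.9% of all tested genes, followed by inaC (187 ± 7.27), ninaC (144 ± 2.22), Arr2 (125 ± 5.92) and chp (88.1 ± 2.85). The libraries of these 5 genes did not overlap with those of the next in order. In the middle stood Galphaq (47.3 ± 0.65), norpA (16.4 ± 1.27) and trp (11.9 ± 0.30), at the 85.3rd, 60.3rd and 52.2nd percentile. The lowest were the 6 rhodopsins, trpl, Arr1 and ninaD, each at or under 0.456 CPM per kb. Among Rh5, Rh3, trpl, Rh6, Rh4 and Arr1, each gene overlapped with its neighbour in the order. Arrestins and light channels thus came in unequal pairs, with Arr2 at 125 beside Arr1 at 0.245 CPM per kb, and trp at 11.9 beside trpl at 0.361.

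**Figure D1:**
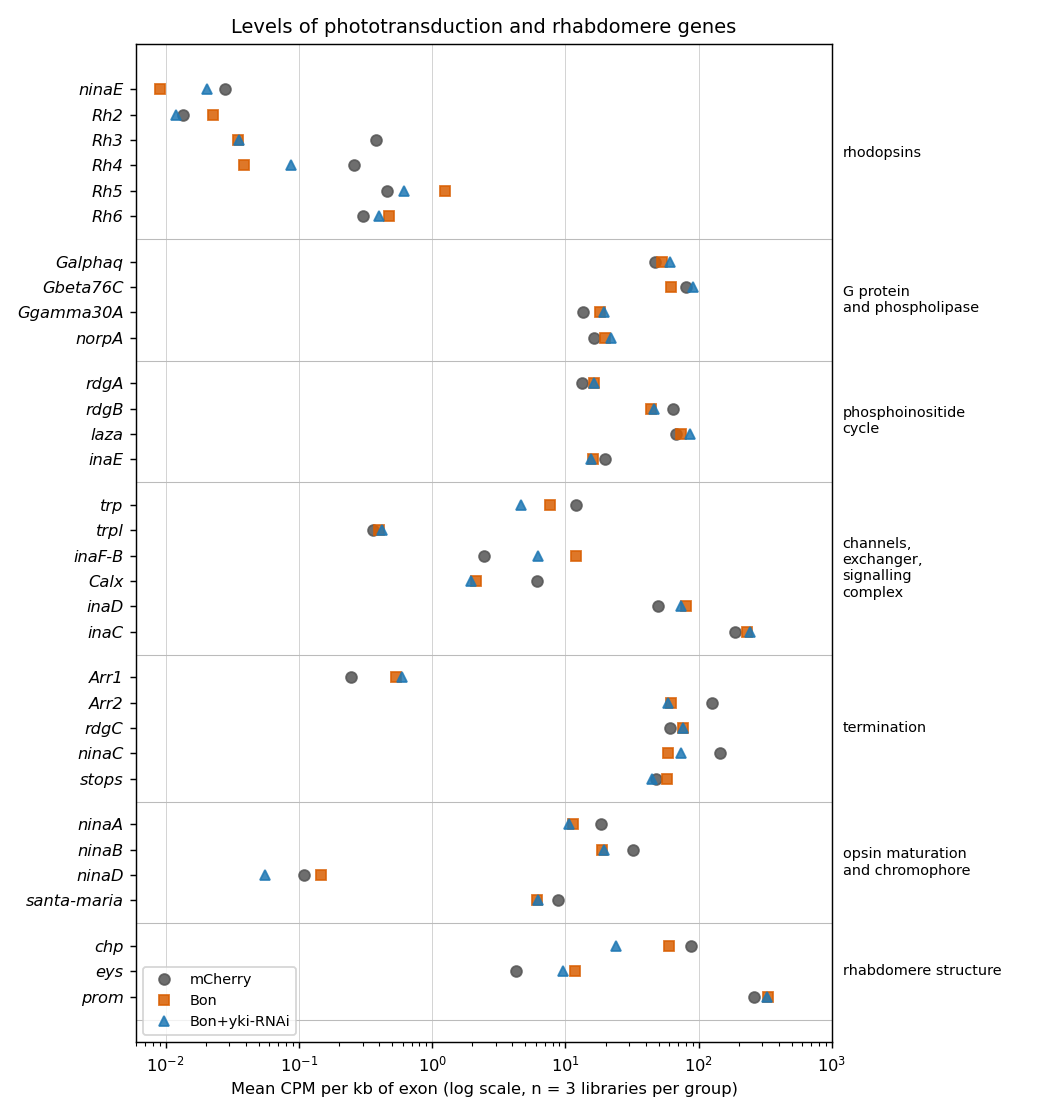
Mean level of each of the 32 genes in CPM per kb of exon (horizontal log axis) in mCherry (circles), Bon (squares) and Bon+yki-RNAi eyes (triangles), 3 libraries each, with genes grouped by role. The rhodopsins lie at the left, at 1.25 CPM per kb or less in all groups, and prom, inaC and ninaC at the right.

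With Bon overexpression, the opsin maturation and chromophore genes ninaA, ninaB and santa-maria fell, ninaC, Arr2 and the exchanger Calx fell to under 50% of control, while the TRP-associated inaF-B and the matrix gene eys rose several-fold. Of the 29 members that passed the filter on low counts, 14 rose and 13 fell in the edgeR quasi-likelihood test at an adjusted p of 0.05, beside 52.4% of all tested genes called (25.2% higher, 27.2% lower). With upper-quartile scaling 3894 genes were called higher and 2323 lower, against 2786 and 3009 here, while the members stayed at 14 and 13. The 3 others, ninaE, Rh2 and ninaD, were not tested. Of the called members, 9 changed by 1 or more on the log2 scale in either direction, beside 9.78% of all tested genes, and the libraries of 26 members did not overlap, beside 58.6%. These counts include Rh3 and Rh4, which passed the filter through their mCherry counts alone, and without them 14 rose, 11 fell, 7 changed by 1 or more and 24 did not overlap, of 27 tested. The median log2 fold change of the members was 0.14 and their median absolute log2 fold change 0.55, beside 0.00 and 0.18 over all tested genes.

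With yki knocked down in Bon eyes, chp, which encodes the adhesion protein of the microvilli, fell to 39.7% of its level in Bon eyes, and trp, inaF-B and Rh5 fell as well, while Gbeta76C and ninaC rose. In all, 5 members rose, 6 fell and 18 did not pass the threshold, beside 27.6% of all tested genes called (11.3% higher, 16.3% lower). Upper-quartile scaling gave 1610 genes higher and 1468 lower, against 1251 and 1803, and 7 members higher and 6 lower. Among the called members chp and Rh5 changed by 1 or more on the log2 scale, beside 2.84% of all tested genes, and 16 members had libraries that did not overlap, beside 44.4%. The members' median absolute log2 fold change was 0.14, beside 0.10 over all tested genes. Bon+yki-RNAi eyes against mCherry gave 13 higher and 13 lower members, beside 54.5% of all tested genes called (25.1% higher, 29.4% lower), or 4252 genes higher and 2412 lower with upper-quartile scaling against 2773 and 3259. There 9 called members changed by 1 or more on the log2 scale, beside 8.71%, and 27 had libraries that did not overlap, beside 61.8%. Without Rh3 and Rh4 these were 7 and 25, with 13 higher and 11 lower. The 3 comparisons share libraries, so their values for a gene are given side by side and are not independent.

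**Figure D2:**
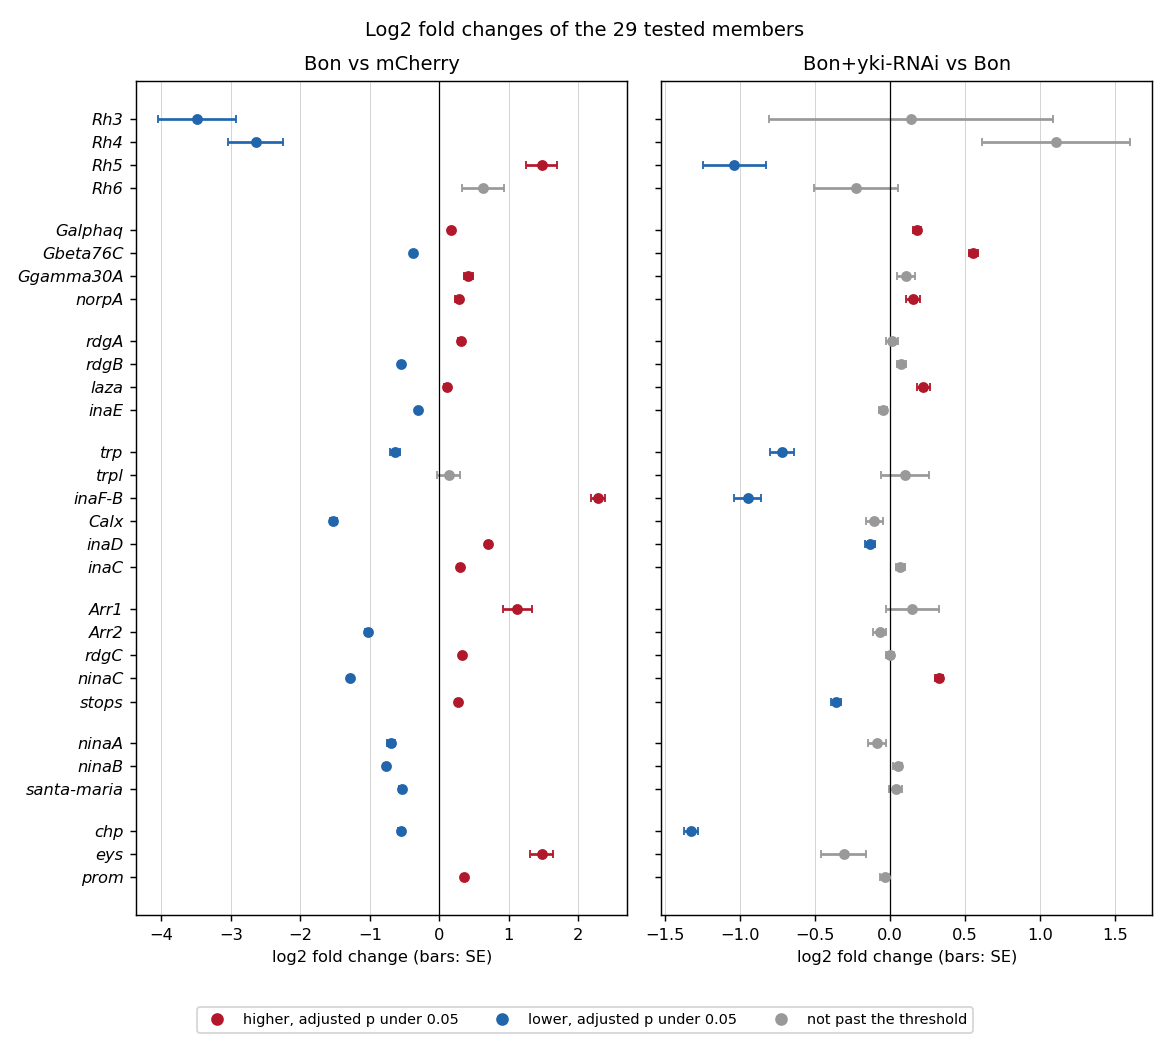
Log2 fold change (horizontal axis, bars are SE) of the 29 tested members in Bon against mCherry (left) and Bon+yki-RNAi against Bon (right), grouped by role, with genes past the threshold in red (higher) or blue (lower). On the left inaF-B is highest at 2.28. Rh3 lies lowest there at -3.48, but Rh3 and Rh4 passed the filter on low counts through mCherry alone. Apart from these, Calx is lowest at -1.52. On the right Gbeta76C is the highest called gene at 0.55 and chp the lowest at -1.33.

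The rhodopsins are the light receptors, and in adult eyes ninaE (Rh1) serves the outer photoreceptors, Rh3 to Rh6 the inner ones and Rh2 the ocelli. In the pupal eyes ninaE had 4.5, 1.5 and 4 counts summed over the mCherry, Bon and Bon+yki-RNAi libraries, and Rh2 had 2, 4 and 2. The level of 3 counts in a library corresponds to between 0.0618 and 0.0859 CPM. It was passed by ninaE only in mCherry replicate 1 (3.5 counts) and Bon+yki-RNAi replicate 1 (4 counts) and by Rh2 in none, the mean of each group lay under it for both genes, and no fold is given. Rh3, an ultraviolet opsin, stood at 0.360, 0.685 and 0.533 CPM in mCherry, 0, 0.0434 and 0.103 CPM in Bon, and 0.0243, 0.0983 and 0.0260 CPM in Bon+yki-RNAi libraries. All mCherry libraries were above all others. Its log2 fold change with Bon was -3.48 ± 0.56 (adjusted p = 0.000111), but the fitted value depends on the prior count, since the mean in Bon eyes lay under 3 counts a library. The summed counts of 6.5 against 63.5, rounded to 6 and 64, gave a log2 ratio of -3.53 with a 95% counting interval of -5.02 to -2.32. Rh4, the other ultraviolet opsin, stood at 0.386, 0.300 and 0.355 CPM in mCherry, 0.0414, 0.0651 and 0.0513 in Bon, and 0.0970, 0.123 and 0.130 in Bon+yki-RNAi. The same holds for Rh4, whose fitted log2 fold change with Bon was -2.65 ± 0.39 (adjusted p = 4.73e-05). Its summed counts of 6.5 against 42, rounded to 6 and 42, gave a log2 ratio of -2.92 with a counting interval of -4.44 to -1.68. Rh3 and Rh4 passed the filter on low counts through the mCherry libraries alone, so that their calls carry no weight as a count. In Bon+yki-RNAi against Bon the values were 0.14 ± 0.95 for Rh3 and 1.11 ± 0.49 for Rh4, and neither passed (adjusted p = 0.939 and 0.179).

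Rh5, a blue opsin, went the other way. It stood at 0.592, 0.728 and 0.829 CPM in mCherry, 1.99, 2.39 and 1.54 in Bon, and 1.26, 0.787 and 0.833 in Bon+yki-RNAi libraries. The Bon libraries were above all others. Its log2 fold change was 1.47 ± 0.22 with Bon (adjusted p = 6.29e-05) and -1.04 ± 0.21 with yki-RNAi in Bon eyes (adjusted p = 0.002). Against mCherry, Bon+yki-RNAi eyes were at 0.43 ± 0.25 (adjusted p = 0.165). Rh6, a green opsin, stood at 0.489, 0.385 and 0.474 CPM in mCherry, 0.414, 0.977 and 0.692 in Bon, and 0.631, 0.639 and 0.495 in Bon+yki-RNAi libraries. Its groups overlapped between mCherry and Bon, and it passed in none of the comparisons. Without Bon replicate 1, the value of Rh6 with Bon became 0.93 (adjusted p = 0.00938). All 6 rhodopsins together summed to between 1.96 and 2.25 CPM in mCherry libraries, between 2.43 and 3.52 in Bon libraries and between 1.48 and 2.11 with yki-RNAi.

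The genes of the G protein and its effector changed by at most 0.42 with Bon and 0.55 with yki-RNAi on the log2 scale. The alpha subunit gene Galphaq stood at 327 ± 4.47 CPM in mCherry, 368 ± 12.1 in Bon and 417 ± 5.72 in Bon+yki-RNAi eyes and rose in both steps, at 0.17 ± 0.03 (adjusted p = 0.000121) and 0.18 ± 0.03 (adjusted p = 0.000249). The gamma subunit gene Ggamma30A stood at 167, 160.0 and 183 CPM in mCherry, 218, 217 and 248 in Bon, and 237, 250.3 and 248 in Bon+yki-RNAi libraries, with 0.42 ± 0.06 (adjusted p = 0.000227) for Bon and 0.11 ± 0.06 (adjusted p = 0.225) for yki-RNAi. The phospholipase C gene norpA stood at 136 ± 10.5, 165 ± 6.60 and 184 ± 3.27 CPM, with 0.28 ± 0.05 (adjusted p = 0.000416) for Bon. Its 0.15 ± 0.05 with yki-RNAi (adjusted p = 0.0339) missed the threshold in 6 of the 9 fits without 1 library, at 0.13 to 0.17 with adjusted p up to 0.117, namely without mCherry replicate 1, Bon replicate 1 or 3, or any Bon+yki-RNAi library.

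The eye-specific beta subunit gene Gbeta76C fell with Bon, where the other 3 genes of the step rose. It stood at 119, 118 and 116 CPM in mCherry, 91.8, 92.1 and 86.7 in Bon, and 132, 132 and 134 in Bon+yki-RNAi libraries, and no groups overlapped. It fell with Bon by 0.38 ± 0.03 on the log2 scale (adjusted p = 4.37e-08) and rose with yki-RNAi by 0.55 ± 0.03 (adjusted p = 5.18e-09). Bon+yki-RNAi eyes were above mCherry, at 0.17 ± 0.03 (adjusted p = 0.000154), as they were for all 4 genes of the step. Summed, the 4 genes of this step reached between 735 and 771 CPM in mCherry libraries, between 842 and 862 in Bon libraries and between 976 and 982 with yki-RNAi. Of the exon sequence of Galphaq, 44.1% is also annotated to CG45086 on the same strand, whose log2 fold changes were 0.18 ± 0.03 and 0.16 ± 0.03, so that the reads of the pair may have been divided.

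The lipid cycle restores the phospholipase substrate after each response. The gene rdgB, for the transfer protein that returns phosphatidylinositol to the microvilli, stood at 600, 606 and 569 CPM in mCherry, 403, 417 and 396 in Bon, and 431, 417 and 434 in Bon+yki-RNAi libraries. The mCherry libraries were above all others, and rdgB fell with Bon by 0.54 ± 0.03 on the log2 scale (adjusted p = 1.77e-09). With yki-RNAi it was at 0.08 ± 0.03 (adjusted p = 0.0873). The gene inaE, for the diacylglycerol lipase of the cascade, went from 140 ± 1.92 to 114 ± 1.31 and 110 ± 0.213 CPM, falling by 0.30 ± 0.02 with Bon (adjusted p = 8.28e-08) and standing at -0.05 ± 0.02 with yki-RNAi (adjusted p = 0.171). The gene rdgA, for the diacylglycerol kinase, went from 171 ± 5.59 to 212 ± 12.9 and 214 ± 3.95 CPM, at 0.31 ± 0.04 (adjusted p = 1.56e-05) and 0.01 ± 0.04 (adjusted p = 0.866). The lipid phosphate phosphatase gene laza stood at 157 ± 3.30, 169 ± 11.7 and 198 ± 6.34 CPM. Its rise with Bon of 0.11 ± 0.04 (adjusted p = 0.0468) had overlapping libraries. Without any single mCherry library, Bon replicate 1 or Bon+yki-RNAi replicate 2 or 3 it missed the threshold (0.06 to 0.13, adjusted p up to 0.155). The same was so in the edgeR fit of only the 2 groups (adjusted p = 0.0719) and in the authors' deposited DESeq2 results (adjusted p = 0.0596). Its rise with yki-RNAi was 0.22 ± 0.04 (adjusted p = 0.00182). The genes rdgB and inaE lie next to each other on the X chromosome (BDGP6, 13762752 to 13779488 and 13783714 to 13811493), 4225 bases apart on the same strand.

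Among the channel genes, trp, for the main light-activated channel, was lower with Bon and lower again with yki-RNAi. It stood at 49.6, 48.1 and 50.5 CPM in mCherry, 29.9, 30.1 and 35.8 in Bon, and 18.3, 18.2 and 21.5 in Bon+yki-RNAi libraries. No groups overlapped. The log2 fold changes were -0.63 ± 0.07 with Bon (adjusted p = 2.57e-05), -0.72 ± 0.08 with yki-RNAi in Bon eyes (adjusted p = 5.86e-05), and -1.35 ± 0.08 for Bon+yki-RNAi against mCherry (adjusted p = 6.14e-08). The second channel gene, trpl, was between 1.26 and 1.79 CPM in all libraries and passed in none of the comparisons.

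The gene inaF-B, for a small membrane protein that TRP needs for its function, had the largest rise among the members. It stood at 7.31, 7.92 and 7.70 CPM in mCherry, 34.5, 34.7 and 42.9 in Bon, and 17.4, 20.2 and 20.3 in Bon+yki-RNAi libraries. The groups were apart from each other, with Bon highest. It rose 4.87-fold with Bon, at 2.28 ± 0.10 (adjusted p = 1.02e-08), fell by 0.95 ± 0.09 with yki-RNAi (adjusted p = 2.15e-05), and remained above mCherry at 1.33 ± 0.11 (adjusted p = 1.49e-06). Of its exon sequence, 86.6% is shared on the same strand with inaF-A, inaF-C or inaF-D, whose log2 fold changes were 2.25 to 2.29 with Bon and -1.09 to -0.89 with yki-RNAi. The values therefore describe the inaF locus (X, 11724668 to 11732770), and its products cannot be told apart.

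Calx, for the sodium-calcium exchanger that removes calcium after a response, stood at 57.3, 51.1 and 55.5 CPM in mCherry, 20.3, 18.3 and 18.4 in Bon, and 18.0, 17.1 and 17.8 in Bon+yki-RNAi libraries. All mCherry libraries were above the rest. It fell to 34.7% of control with Bon, at -1.52 ± 0.05 (adjusted p = 4.99e-12), and was at -0.11 ± 0.06 with yki-RNAi (adjusted p = 0.182). The scaffold and kinase genes of the channel complex rose with Bon instead. The scaffold gene inaD stood at 117, 116 and 112 CPM in mCherry, 185, 185 and 193 in Bon, and 167, 168 and 178 in Bon+yki-RNAi libraries. It rose with Bon by 0.71 ± 0.03 (adjusted p = 9.54e-11) and fell slightly with yki-RNAi, at -0.13 ± 0.03 (adjusted p = 0.0041). The protein kinase C gene inaC went from 440 ± 17.1 to 541 ± 11.5 CPM, at 0.30 ± 0.03 (adjusted p = 1.09e-06), and was at 567 ± 5.88 CPM with yki-RNAi (0.07 ± 0.03, adjusted p = 0.112).

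**Figure D3:**
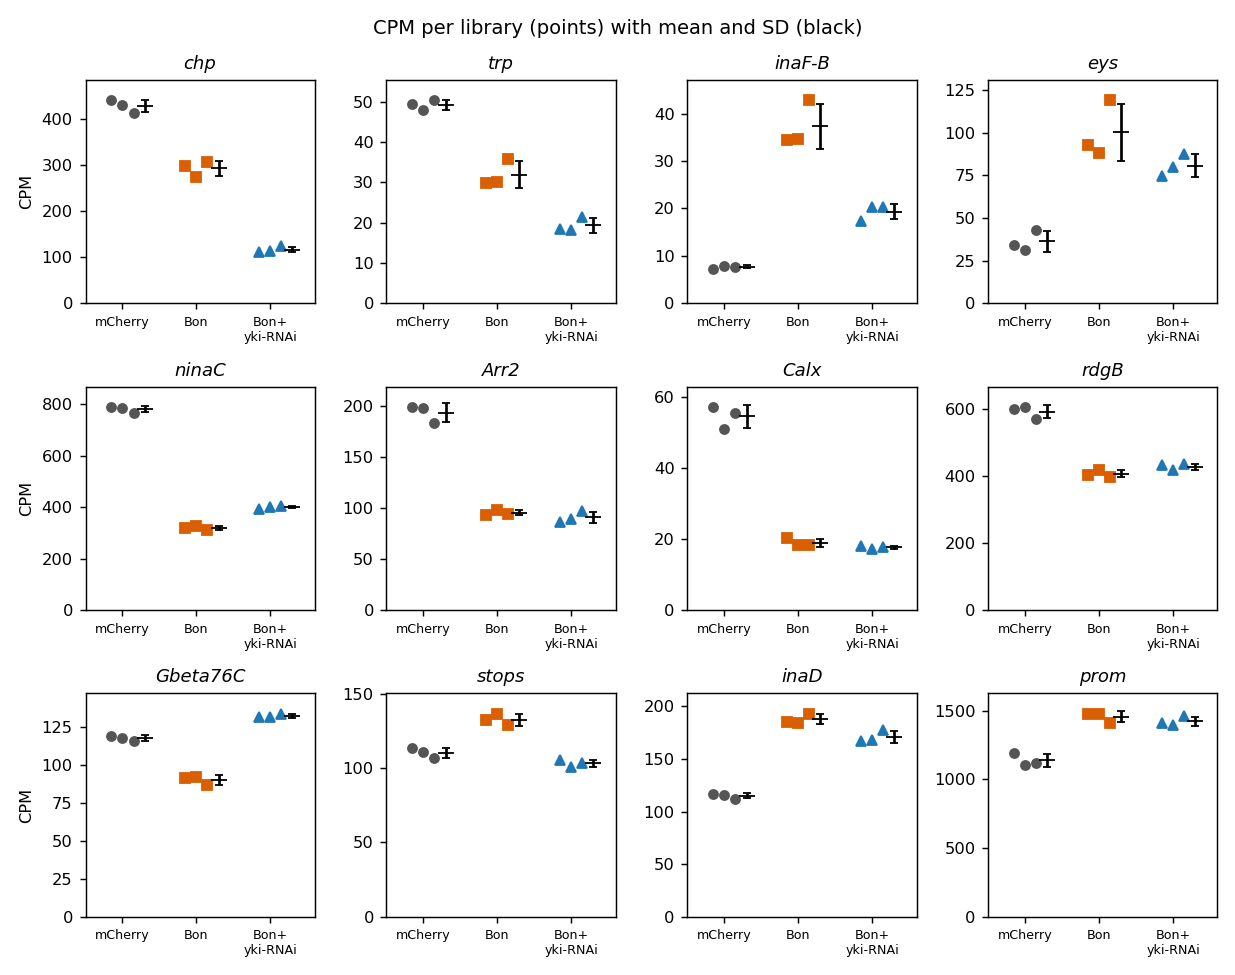
CPM (vertical axes, starting at 0) of 12 members in each library, with 3 points per group for mCherry, Bon and Bon+yki-RNAi and the mean ± SD in black beside them. The genes chp and trp step down over the 3 groups, ninaC, Arr2, Calx and rdgB are highest in mCherry, inaF-B is highest in Bon, and Gbeta76C is lowest in Bon.

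Of the 5 genes that end the response, ninaC and Arr2 fell with Bon and Arr1, rdgC and stops rose. The gene ninaC, for a rhabdomere myosin with a kinase domain, stood at 791, 786 and 768 CPM in mCherry, 320, 328 and 309 in Bon, and 394, 401 and 404 in Bon+yki-RNAi libraries. No groups overlapped. It fell with Bon to 40.8% of control, at -1.29 ± 0.03 (adjusted p = 3.73e-14), and rose with yki-RNAi by 0.32 ± 0.03 (adjusted p = 7.22e-07), which left it at -0.97 ± 0.03 against mCherry (adjusted p = 8.22e-13). Arr2, for the main arrestin, stood at 199, 198 and 183 CPM in mCherry, 93.3, 97.7 and 94.1 in Bon, and 86.0, 89.3 and 96.6 in Bon+yki-RNAi libraries. It fell with Bon by 1.02 ± 0.04 on the log2 scale (adjusted p = 2.56e-10) and was at -0.07 ± 0.04 with yki-RNAi (adjusted p = 0.284). Arr1, the second arrestin gene, was low throughout, at 0.643, 0.642 and 0.533 CPM in mCherry, 1.57, 1.3 and 1.1 in Bon, and 1.75, 1.25 and 1.43 in Bon+yki-RNAi libraries. Its mCherry libraries were under all others, and it rose with Bon by 1.13 ± 0.21 (adjusted p = 0.000329).

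The rhodopsin phosphatase gene rdgC went from 320 ± 7.64 to 403 ± 12.3 CPM with Bon, at 0.33 ± 0.03 (adjusted p = 1.86e-07), and was at 402 ± 4.49 CPM with yki-RNAi (-0.00 ± 0.03, adjusted p = 0.96). The gene stops, for a SOCS-box protein needed for normal levels of the phospholipase, stood at 113, 111 and 107 CPM in mCherry, 132, 137 and 129 in Bon, and 106, 101 and 103 in Bon+yki-RNAi libraries. The Bon libraries were above all others. It rose with Bon by 0.27 ± 0.03 (adjusted p = 5.89e-06) and fell with yki-RNAi by 0.36 ± 0.03 on the log2 scale (adjusted p = 1.17e-06). Its difference between Bon+yki-RNAi and mCherry, -0.09 ± 0.03 (adjusted p = 0.0226), became -0.00 (adjusted p = 0.933) with upper-quartile scaling. It also missed the threshold in DESeq2 (adjusted p = 0.0695) and without mCherry replicate 1 or 2 or Bon+yki-RNAi replicate 2 or 3 (-0.10 to -0.06, adjusted p from 0.0554 to 0.14).

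Among the members for making and loading rhodopsin, all 3 that were tested were lower in Bon than in mCherry, beside 27.2% of all tested genes. Other genes of the same function went both ways with Bon. Pdh fell (-6.08 ± 0.07), while xport-A and xport-B (each 0.48 ± 0.04), ninaG (0.48 ± 0.03) and pinta (1.39 ± 0.12) rose. Of the 3 members, 0 passed with yki-RNAi in edgeR, beside 27.6% of all tested genes, which with 3 genes does not set them apart. In edgeR 0 also had an unadjusted p under 0.05, and 0 passed in DESeq2. The gene ninaA, for a cyclophilin that chaperones Rh1, went from 16.1 ± 0.584 to 9.90 ± 0.191 and 9.32 ± 0.647 CPM, at -0.70 ± 0.06 with Bon (adjusted p = 1.09e-07). The gene ninaB, for the oxygenase that cleaves carotenoids to retinal, went from 68.9 ± 1.46 to 40.5 ± 1.07 and 41.9 ± 0.492 CPM, at -0.77 ± 0.03 (adjusted p = 5.23e-11). The gene santa-maria, for a scavenger receptor of carotenoid uptake, went from 49.2 ± 1.26 to 33.9 ± 1.15 and 34.8 ± 1.71 CPM, at -0.54 ± 0.04 (adjusted p = 4.82e-08). The other scavenger receptor gene, ninaD, had 23.5, 34.5 and 13 counts summed over the libraries of the 3 groups and did not pass the filter. All exon sequence of ninaA is overlapped by CG15824 on the opposite strand, with -0.72 ± 0.06 for Bon, and without knowledge of the strand in counting the reads of the pair cannot be told apart.

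Of the 3 structural genes of the rhabdomere, chp fell and eys and prom rose with Bon. The gene chp encodes Chaoptin, a surface protein that holds neighbouring microvilli together. It stood at 442, 431 and 415 CPM in mCherry, 299, 275 and 306 in Bon, and 112, 114 and 124 in Bon+yki-RNAi libraries. Every Bon library was under every mCherry library, and every Bon+yki-RNAi library under every Bon library. The log2 fold changes were -0.55 ± 0.04 with Bon (adjusted p = 3.72e-07), -1.33 ± 0.05 with yki-RNAi in Bon eyes (adjusted p = 7.66e-10) and -1.88 ± 0.05 for Bon+yki-RNAi against mCherry (adjusted p = 4.09e-12), so that 27.2% of the control level was left.

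The gene chp lies on 3R (BDGP6, 31204180 to 31210730). The labels write the RNAi construct opposite the driver, where Bon eyes carry a wild-type chromosome, and do not name that chromosome. With yki-RNAi, 30.8% of tested genes were called on arm 3R and 30.8% on arm 3L of the same chromosome. On X, 2R and 2L it was 28.1%, 23.9% and 22.7%, and on the small chromosome 4, with 96 tested genes, 51%. Of the 16 other tested genes within 100 kb of chp, 3 were called, and their largest absolute log2 fold change was 0.74. Around trp (3R, 29914521 to 29920289), 8 of 37 were called, with a largest absolute value of 0.75. Knockdown of yki, the lower bon level and differing stock chromosomes are confounded in these libraries and cannot be told apart. The gene stops lies 35073 bases from chp and had a smaller fall with yki-RNAi, as given above.

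The gene eys encodes Eyes shut, a secreted protein that opens the space between rhabdomeres. It stood at 34.3, 31.4 and 43.0 CPM in mCherry, 93.0, 88.3 and 119 in Bon, and 74.7, 79.8 and 87.6 in Bon+yki-RNAi libraries. It rose 2.78-fold with Bon, at 1.47 ± 0.16 (adjusted p = 0.00023), and with yki-RNAi was at -0.31 ± 0.15 (adjusted p = 0.189), although the libraries of these groups did not overlap, as was also so for 44.4% of all tested genes. With the replicate number as a block, eys was called lower with yki-RNAi, at -0.30 (adjusted p = 0.00202), so its call depends on the model. Prominin, encoded by prom, is a membrane protein of the microvilli that acts with Eyes shut. It stood at 1194, 1103 and 1116 CPM in mCherry, 1479, 1479 and 1413 in Bon, and 1412, 1398 and 1459 in Bon+yki-RNAi libraries. It rose with Bon by 0.36 ± 0.03 (adjusted p = 5.14e-07) and was at -0.03 ± 0.03 with yki-RNAi (adjusted p = 0.511). The 3 structural genes summed to between 1565 and 1671 CPM in mCherry libraries, between 1838 and 1871 in Bon libraries and between 1591 and 1670 with yki-RNAi, while chp and eys took unlike courses within it.

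**Figure D4:**
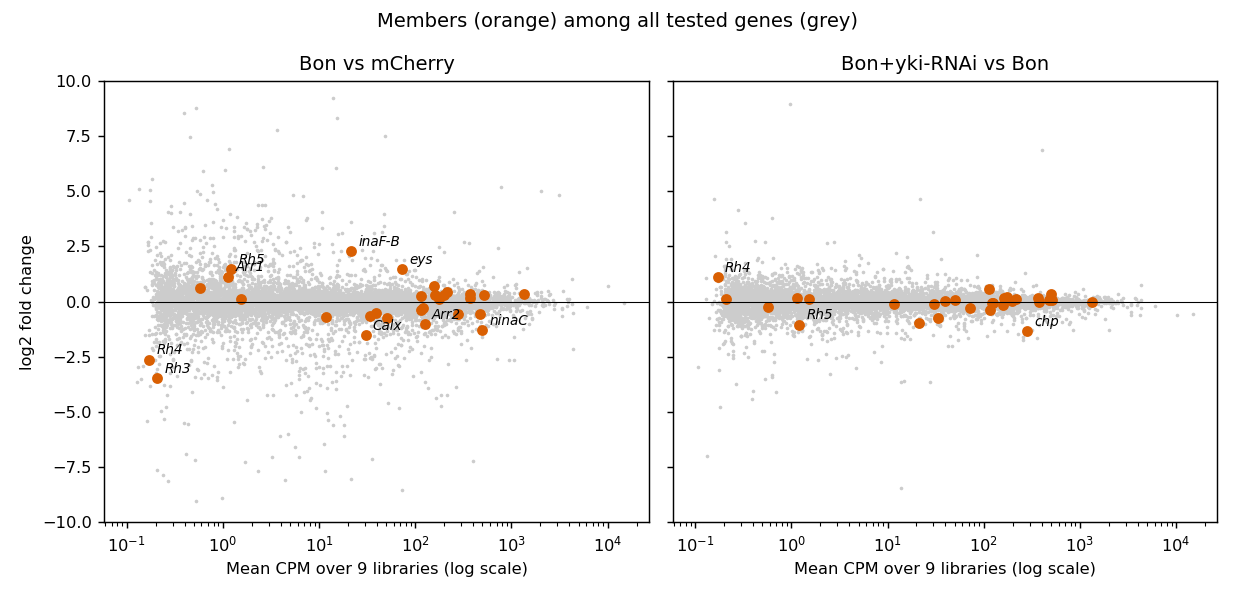
Log2 fold change (vertical axis) against mean CPM over the 9 libraries (horizontal log axis) of all 11068 tested genes in grey and the 29 tested members in orange, for Bon against mCherry (left) and Bon+yki-RNAi against Bon (right). Members that changed by 1 or more on the log2 scale are named, among them inaF-B and eys above and ninaC, Arr2 and Calx below on the left, and chp below on the right.

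Other genes of the pathway were measured beside the members, from a list of 29 genes, all of which were tested. With Bon 15 rose and 8 fell, beside 52.4% of all tested genes called, and with yki-RNAi 4 rose and 11 fell, beside 27.6%, with a median log2 fold change of 0.10 and -0.03. Besides Pdh and cher, pinta, for a retinoid-binding protein of pigment cells that was chosen after its values were seen, changed by 1 or more on the log2 scale. It stood at 1.18 ± 0.0999, 3.12 ± 0.14 and 1.36 ± 0.0263 CPM, at 1.39 ± 0.12 with Bon (adjusted p = 2.0e-07) and -1.20 ± 0.12 with yki-RNAi (adjusted p = 3.49e-06). Pdh, for a retinol dehydrogenase of retinal pigment cells, fell from 52.9 ± 2.48 to 0.776 ± 0.055 CPM with Bon, at -6.08 ± 0.07 (adjusted p = 7.38e-17), and stood at 0.838 ± 0.051 CPM in Bon+yki-RNAi eyes. Fatp1, for a fatty acid transport protein, fell by 0.94 ± 0.03 on the log2 scale (adjusted p = 3.62e-12), wun, for a lipid phosphate phosphatase, rose by 0.72 ± 0.05 (adjusted p = 1.1e-08), and ninaG, for an oxidoreductase of chromophore synthesis, rose by 0.48 ± 0.03 (adjusted p = 6.44e-09). With yki-RNAi the smallest p was that of cher, the filamin gene, at -1.05 ± 0.03 (adjusted p = 1.13e-11), from 536 ± 3.65 to 258 ± 8.39 CPM. The genes xport-A and xport-B, for a TRP and rhodopsin chaperone with nearly equal values that may come from shared reads, both fell by 0.61 ± 0.04 with yki-RNAi (adjusted p = 6.71e-08), after a rise with Bon. Rip11, of rhodopsin vesicle transport, was at -0.39 ± 0.03 (adjusted p = 1.05e-07).

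Regulators of opsin and photoreceptor genes had a median absolute log2 fold change of 0.25 with Bon and 0.12 with yki-RNAi. Over all tested genes it was 0.18 and 0.10. Of 14 on the list, 10 rose and 2 fell with Bon, beside 52.4% of all tested genes called, and 4 rose and 2 fell with yki-RNAi, beside 27.6%. In either comparison 0 of 14 changed by 1 or more on the log2 scale, beside 9.78% and 2.84% of all tested genes. Pph13 and oc, homeodomain factors that act on rhodopsin and phototransduction promoters, rose with Bon by 0.40 ± 0.03 (adjusted p = 8.35e-08) and 0.39 ± 0.03 (adjusted p = 1.52e-07). The gene svp, a nuclear receptor of outer photoreceptors, rose by 0.29 ± 0.03 (adjusted p = 1.17e-06), and ey, a Pax6 gene, by 0.29 ± 0.03 (adjusted p = 3.02e-06). With yki-RNAi, melt, which together with wts sets the choice between Rh5 and Rh6 in inner photoreceptors, fell by 0.56 ± 0.06 on the log2 scale (adjusted p = 3.45e-05), from 83.5 ± 8.44 to 56.8 ± 1.28 CPM, and wts was at -0.13 ± 0.03 (adjusted p = 0.00464). The genes salr and ey rose with yki-RNAi, by 0.17 ± 0.04 (adjusted p = 0.00248) and 0.13 ± 0.03 (adjusted p = 0.00709). With Bon melt had risen by 0.39 ± 0.06 (adjusted p = 0.00017) and wts had fallen by 0.22 ± 0.03 (adjusted p = 1.75e-05).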

How the data were processed

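For every library the authors deposited a gene table whose columns, per the file headers, are exon positions, length, name, biotype and an estimated count. These estimated counts, as the authors deposited them, had a decimal part in 39.7 to 42.8% of values. The submitters' processing notes name the build BDGP6 and the tools STAR 2.7.0e, Bowtie2 2.3.5.1, cutadapt 2.9, Subread 1.6.2 (featureCounts) and DESeq2 1.30.1. Strandedness and options: not given in the sources used here. Of the 32 members, 8 share exon sequence with another gene.

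Counts were rounded. The filter filterByExpr (minimum count 10) kept 11068 genes. After TMM scaling all 9 libraries entered 1 quasi-likelihood fit of edgeR 4.0.16 (R 4.3.3) with group as the only term. Tests are two-sided, with Benjamini-Hochberg adjustment over all tested genes. Errors given with ± are SE for log2 fold changes and SD (n = 3) for levels. The procedure was tested on simulated data. Counting intervals are exact binomial at 95% on summed counts rounded to whole numbers and, like the floor of 3 counts, cover counting error only.

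For 2 of the comparisons the authors deposited result tables with size-factor-scaled counts (a signal), a log2 fold change, a fold change as a ratio, p-values and a −log10 of the adjusted p, per the file headers. In the authors' deposited tables, 28 of 29 members in Bon against mCherry and 23 of 27 in Bon+yki-RNAi against Bon were on the same side of the threshold with the same sign as here.

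The members and lists were chosen with earlier results of these data known. All members are named, and of other lists mainly the 4 genes with the smallest p per comparison. Outside that rule, pinta and the values with Bon of xport-A, xport-B, melt and wts were given after the values were seen. Marker lists were given by counts and sums. Named from them after their values were seen were gl, elav, futsch, w, ct, wrapper, loco, repo, moody, Gs2, bsh, Pxn, Hml and He. Positions come from the deposited tables and were the same in an Ensembl annotation of BDGP6 for 32 of 32 members. The series design speaks of biological replicates.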

Additional observations from a re-analysis of the deposited data

How the results depend on the processing

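The alternatives were upper-quartile or median-ratio (RLE) scaling, no filter on low counts, DESeq2, fits of only the groups compared, the replicate number as a block, and leaving out each library. Member counts for Bon against mCherry stayed at 13 to 14 higher and 13 lower. For Bon+yki-RNAi against Bon they were 4 to 7 higher and 6 to 7 lower, and for Bon+yki-RNAi against mCherry 13 higher and 12 to 13 lower. With upper-quartile scaling, rises made up 62.6% of all calls against 48.1% for Bon, 52.3% against 41.0% for yki-RNAi, and 63.8% against 46.0% for Bon+yki-RNAi against mCherry, where genes called higher went from 2773 to 4252. With yki-RNAi, rdgB and inaC passed the threshold with that scaling (0.10, adjusted p = 0.0207, and 0.09, adjusted p = 0.0298), in the fit of the 2 groups alone (adjusted p = 0.0218 and 0.017) and without mCherry replicate 3 (adjusted p = 0.0454 and 0.0434). Signs turned only for genes not past the threshold with yki-RNAi: rdgC became 0.0211 with upper-quartile scaling, and 0.00613, 0.00575 and 0.00607 with RLE scaling, the 2 groups alone and DESeq2, the cause of which was not tested. Leaving out single libraries gave ranges that crossed 0 for rdgC (-0.0217 to 0.0192), Rh3 (-0.77 to 1.13), trpl (-0.0257 to 0.198), Rh6 (-0.514 to 0.119), rdgA (-0.0341 to 0.0553) and santa-maria (-0.00231 to 0.0624). Deviations of same-numbered libraries from their group means correlated at -0.0149 to 0.183, over 0.1 in 2 of 9 pairs. In 13 of 18 cases a library correlated best with its own number in another group. The labels name no shared batch, so the main fit has no block, but an effect shared by number is not excluded. With the replicate block, the Bon+yki-RNAi against Bon counts were 6 higher and 7 lower members, with Ggamma30A, inaC and eys (-0.30, adjusted p = 0.00202) past the threshold and norpA not. Depth limits the values of the rhodopsins, each of which was at 2.39 CPM or less in every library.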

Other observations

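In the gene eys and in trp the library numbered 3 was the highest of its group in all 3 groups, and in Calx and Arr1 that numbered 1. Libraries numbered 3 were highest in all groups for 5.99% of all tested genes, and those numbered 1 for 3.77%.

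The neighbours Arr1 and ninaD lie 320 bases apart, and summed counts over the mCherry, Bon and Bon+yki-RNAi libraries were 73, 178 and 177.5 for Arr1 and 23.5, 34.5 and 13 for ninaD. With no filter on low counts ninaD was among 7 members called lower with yki-RNAi. Its counting interval for the log2 ratio was -2.23 to -0.22, which covers counting error only. In the authors' deposited DESeq2 results it did not pass, at -1.34 (adjusted p = 0.207), so its call depends on the processing.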
